A study of Mus musculus with 4 samples.

Results

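The receptors described here are 8 G protein-coupled receptors that sense metabolites and lipids: Gpr84, Gpr31b, Gpr35, Hcar2, Sucnr1, Gpr183, Ffar2 and Gpr65. They were taken by gene symbol from an expression array that measured 19938 genes by probe sets with 1 gene each, with the mean taken where a gene had several. All 8 were measured, Gpr31b by 2 probe sets and each of the others by 1. The set was chosen by function with the signals of all 4 arrays known, among them the IL-1α and M2-to-M1 differences given here, so all values are a description and no test was made.

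The arrays held RNA of macrophages grown from the bone marrow of C57BL/6N mice, and the study asked how M1 and M2 macrophages differ in their response to interleukin-1α (IL-1α), an inflammatory cytokine. M2 macrophages had received 20 ng/mL interleukin-4 for 48 h, and M1 macrophages 10 ng/mL interferon-γ for 48 h. All cells had been grown in 10 ng/mL M-CSF and harvested on day 9. The groups, with 1 array each, were M2 with 10 ng/mL IL-1α for 24 h, M2 with vehicle, M1 with the same IL-1α treatment, and M1 with vehicle. No genetic change is named in the labels, and they give neither the age nor the number of mice. With no replicate, no value has a standard deviation, and differences between 2 arrays are differences between those arrays.

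Signals are RMA values on the log2 scale, and a difference is log2 as well wherever no fold is written. The median signal of all genes on the arrays, 7.617, served as a floor. A signal under it is not shown to be above background. To be called higher or lower, a gene needed a 2-fold difference and a signal at or over the floor on 1 or more of the arrays set against each other. All 9 measured macrophage markers, among them Adgre1, Csf1r, Cd68 and Fcgr1, read above the floor on all 4 arrays. The M2 markers Arg1, Retnla, Chil3, Mrc1, Egr2 and Mgl2 were past 2-fold upward in M2, and 5 of 6 M1 markers past 2-fold downward, on either pair of arrays. The exception was Ciita, which differed by -0.13 with vehicle. All 6 genes chosen to check the IL-1α response, among them Nfkbia and Tnf, were past 2-fold upward with IL-1α in M2. In M1, none of the 6 was. Over all genes, 0.35% were called higher with IL-1α in M2 and 0 of 10012 in M1. The marker and check genes were chosen with earlier results of these data known.

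These receptors let immune cells read their chemical surroundings: each binds a small molecule or a proton outside the cell and signals through G proteins inside it. Most of the 8 couple to inhibitory G proteins that lower cyclic AMP, whereas Gpr65 couples to the stimulatory kind that raises it. In macrophages and other leukocytes, receptors of this kind are known for tuning cytokine output and migration to nutrients, microbial products and tissue acidity. Gpr84 answers medium-chain fatty acids, Gpr31b is the mouse gene of a receptor known in human cells for hydroxylated arachidonic acid (HETE), and Ffar2 answers short-chain fatty acids such as acetate. Gpr35 answers tryptophan metabolites such as kynurenic acid, Hcar2 the ketone body β-hydroxybutyrate and niacin, and Sucnr1 succinate. Gpr183 answers oxysterols, and Gpr65 protons.

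Promoter windows of RefSeq (GRCm38.p6; 250 bases before to 50 after a gene's start) were matched for 7 of the 8 receptors, with 2 windows for Gpr35, 4 for Ffar2 and 1 for each of the others. The windows below are shown because these 4 receptors, of those with a window, had differences past 2-fold: Gpr84 with IL-1α in M2, Gpr31b and Gpr35 as lower in M2, and Gpr183 as higher in M2. They lie at chr15:103310389-103310688 (Gpr84, minus strand), chr17:13052231-13052530 (Gpr31b, minus strand), chr1:92978653-92978952 (the second window of Gpr35, plus strand) and chr14:121965144-121965443 (Gpr183, minus strand). Each is read from the gene's strand, and capitals mark matches to the 7 motifs named after them.
Gpr84: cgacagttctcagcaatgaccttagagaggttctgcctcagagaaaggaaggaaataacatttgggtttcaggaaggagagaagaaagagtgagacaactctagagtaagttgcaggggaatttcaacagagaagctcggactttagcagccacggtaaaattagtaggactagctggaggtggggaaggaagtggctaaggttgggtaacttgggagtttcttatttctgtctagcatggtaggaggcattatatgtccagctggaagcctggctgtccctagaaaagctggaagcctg
Gpr31b: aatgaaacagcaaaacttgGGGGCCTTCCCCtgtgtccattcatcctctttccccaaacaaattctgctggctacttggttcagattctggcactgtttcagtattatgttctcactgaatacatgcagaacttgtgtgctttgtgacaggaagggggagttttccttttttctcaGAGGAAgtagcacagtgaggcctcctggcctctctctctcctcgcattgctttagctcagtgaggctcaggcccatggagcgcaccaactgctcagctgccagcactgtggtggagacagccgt
Gpr35: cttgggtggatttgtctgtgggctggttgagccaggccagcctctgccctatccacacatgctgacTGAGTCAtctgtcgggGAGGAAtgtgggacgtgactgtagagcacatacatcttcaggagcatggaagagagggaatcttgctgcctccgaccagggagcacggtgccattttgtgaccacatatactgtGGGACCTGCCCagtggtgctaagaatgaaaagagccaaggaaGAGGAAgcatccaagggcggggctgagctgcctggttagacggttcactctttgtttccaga
Gpr183: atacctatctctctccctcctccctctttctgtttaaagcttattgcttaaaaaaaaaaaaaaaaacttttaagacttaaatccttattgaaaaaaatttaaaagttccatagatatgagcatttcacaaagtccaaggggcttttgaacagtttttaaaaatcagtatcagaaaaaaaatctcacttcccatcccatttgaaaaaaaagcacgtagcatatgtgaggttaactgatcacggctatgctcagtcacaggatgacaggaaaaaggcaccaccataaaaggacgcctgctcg

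The motifs were searched on both strands, with N for any base. A strict form of the NF-κB motif was in 1.63% of 32851 windows of all genes, and a broad form in 50.8%. The STAT form TTCNNNGAA was in 8.3%, a STAT form with a spacer longer by 1 base in 6.95%, the interferon-stimulated response element in 3.44%, the AP-1 form TGANTCA in 7.81% and the PU.1 form GAGGAA in 28.3%. The window of Gpr84, that of Gpr183 and the first window of Gpr35 held none of the 7. The window of Gpr31b held overlapping matches to the broad NF-κB form at -231 to -220 (the base before the start is -1) and GAGGAA at -74 to -69. The second window of Gpr35 held TGANTCA at -184 to -178, GAGGAA at -168 to -163 and again at -12 to -7, and overlapping matches to the broad NF-κB form at -54 to -44. A match is a run of letters and not a shown binding site.

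The 8 receptors differed in pattern. Gpr84 was lower in M2 than in M1, and higher in IL-1α-treated than in vehicle-treated M2. Gpr31b, Hcar2 and Gpr35 were lower in M2 than in M1 on either pair of arrays, Gpr183 was higher in M2, and Gpr65 was above the floor on all arrays with small differences. Sucnr1 and Ffar2 read under the floor on all 4 arrays. In bulk RNA, fewer cells that express a gene and less of its RNA per cell cannot be told apart.

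**Figure D1:**
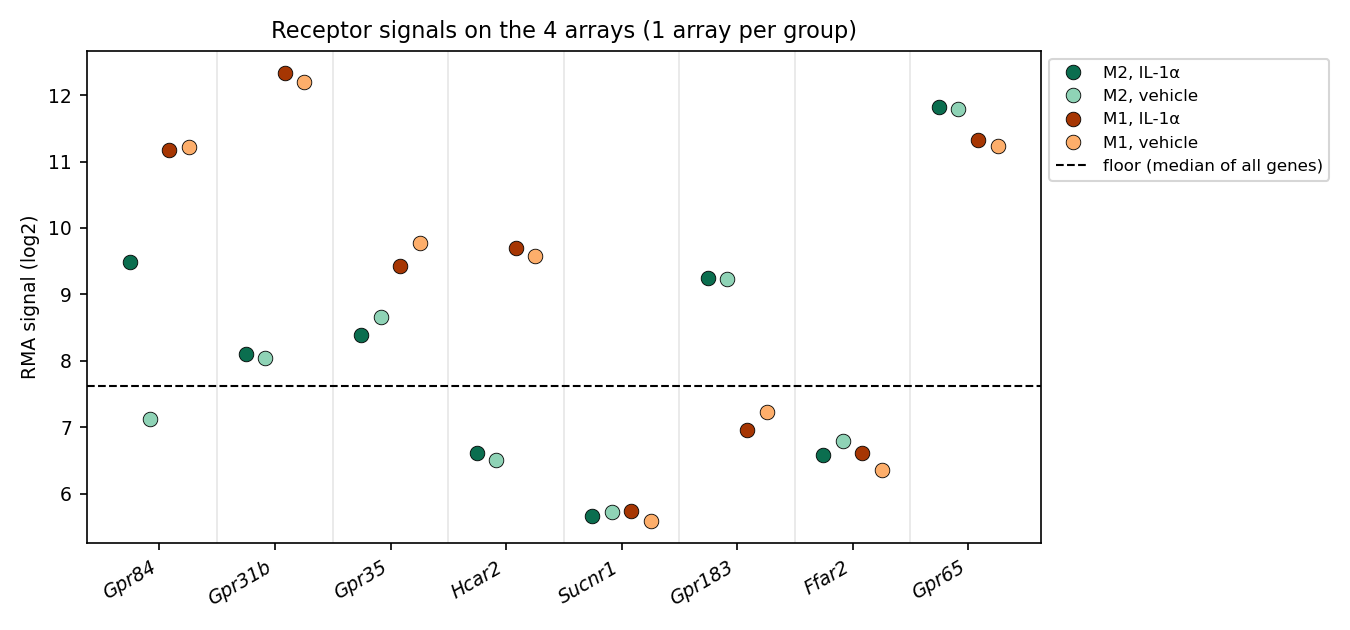
RMA signal (log2, vertical axis) of each receptor on the 4 arrays, 1 point per array, with the floor of 7.617 as a dashed line. Gpr84 sits at 9.48 in IL-1α-treated M2 and at 7.12 in vehicle-treated M2, whereas the IL-1α and vehicle points of Gpr31b, Hcar2 and Gpr65 lie close together within each phenotype.

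The signal of Gpr84 was 9.48 in IL-1α-treated M2 and 7.12 in vehicle-treated M2, and 11.17 in IL-1α-treated M1 and 11.22 in vehicle-treated M1. The M2 vehicle signal was the only one of the 4 under the floor. The IL-1α difference in M2 was 2.36 (5.15-fold higher), rank 5 from the top of 10284 genes. With the M2 vehicle signal raised to the floor, that difference would be 1.87 (3.65-fold). In M1 the difference was -0.05, inside the central 95% of genes there (-0.24 to 0.21). The M1 vehicle signal lay 3.18 below the highest signal of its array.

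Gpr84 was the only receptor called with IL-1α in M2, where 5 of the 8 had an array at the floor, and 0.35% of all genes were called higher in that comparison. With a stricter floor at the 75th percentile of signals (9.635), which its 9.48 did not reach, Gpr84 was not called there. In M1, 0 of 5 receptors at the floor were called, beside 0 of 10012 genes. The M2 response less the M1 response was 2.42 for Gpr84, or 1.92 with the M2 vehicle signal raised to the floor, and 1 of 6 receptors was called in that contrast, beside 0.32% of genes. The 4 arrays leave no way to test it. Between phenotypes Gpr84 differed by -1.69 with IL-1α and by -4.10 with vehicle, or -3.61 with the M2 vehicle signal raised to the floor. IL-1α-treated M2 minus vehicle-treated M1 was -1.74.

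**Figure D2:**
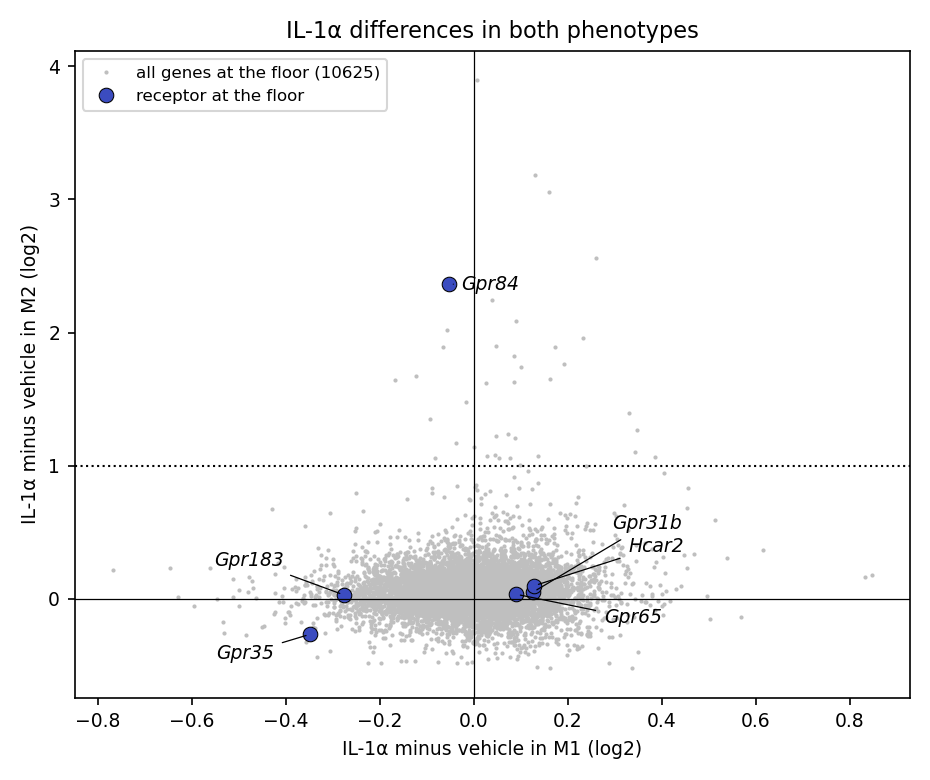
IL-1α minus vehicle (log2) in M1 (horizontal axis) and in M2 (vertical axis) for all 10625 genes at the floor on at least 1 array (grey) and the 6 receptors among them (blue); the dotted line marks a 2-fold difference in M2. Gpr84 sits at 2.36 in M2 and -0.05 in M1, and the other 5 receptors lie between -0.27 and 0.10 in M2.

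Gpr31b had the largest difference between phenotypes among the 8. It read 8.09 in IL-1α-treated M2, against 12.33 in IL-1α-treated M1, and 8.04 in vehicle-treated M2, against 12.20 in vehicle-treated M1. Every one of these signals was above the floor. The differences were -4.24 with IL-1α (18.8-fold lower in M2) and -4.16 with vehicle (17.9-fold lower), ranks 45 from the bottom of 10479 genes and 58 of 10489. Its 2 probe sets carry the same RefSeq accession, and the second read 0.07 to 0.11 above the first on each array. They may share sequence and are not independent measurements. RefSeq lists the pseudogenes Gpr31a and Gpr31c on the same chromosome, and whether their RNA adds to these signals was not tested. With IL-1α, Gpr31b differed by 0.05 in M2 and 0.13 in M1, both inside the central 95% of genes (-0.23 to 0.38 in M2).

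Ffar2, the short-chain fatty acid receptor, read 6.58 in IL-1α-treated M2, 6.79 in vehicle-treated M2, 6.61 in IL-1α-treated M1 and 6.35 in vehicle-treated M1. All 4 signals were under the floor, so its differences carry no order.

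Among the receptors of water-soluble metabolites, Hcar2 was lower in M2. It read 6.61 in IL-1α-treated M2, against 9.70 in IL-1α-treated M1, and 6.51 in vehicle-treated M2, against 9.57 in vehicle-treated M1. Both M2 signals were under the floor. The differences were -3.10 with IL-1α and -3.07 with vehicle. With the M2 signals raised to the floor they would be -2.09 (4.24-fold lower) and -1.96 (3.88-fold lower). In M1, IL-1α minus vehicle was 0.13.

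Gpr35 was lower in M2 by just over 2-fold, and its signals with IL-1α were under those with vehicle in each phenotype. It read 8.39 in IL-1α-treated M2 and 8.66 in vehicle-treated M2, and 9.42 in IL-1α-treated M1 and 9.77 in vehicle-treated M1. M2 minus M1 was -1.03 with IL-1α and -1.11 with vehicle. IL-1α minus vehicle was -0.27 in M2, rank 153 from the bottom of 10284 genes, and -0.35 in M1, rank 44 from the bottom of 10012. Each lay below the central 95% of genes in its comparison, though neither reached 2-fold. Each value comes from 1 pair of arrays, and the share of all genes below the range in both comparisons was not counted.

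Sucnr1, the succinate receptor, read 5.67 in IL-1α-treated M2, 5.72 in vehicle-treated M2, 5.74 in IL-1α-treated M1 and 5.59 in vehicle-treated M1. No array reached the floor, and the 4 signals spanned 0.15.

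Gpr183, which guides leukocyte migration along oxysterol gradients, was the receptor higher in M2. It read 9.25 in IL-1α-treated M2, against 6.95 in IL-1α-treated M1, and 9.22 in vehicle-treated M2, against 7.23 in vehicle-treated M1. Both M1 signals were under the floor. M2 minus M1 was 2.30 with IL-1α and 1.99 with vehicle, and would be 1.64 (3.11-fold higher) and 1.61 (3.05-fold higher) with the M1 signals raised to the floor. IL-1α minus vehicle in M2 was 0.03.

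Gpr65, the proton sensor, read 11.83 in IL-1α-treated M2, against 11.32 in IL-1α-treated M1, and 11.79 in vehicle-treated M2, against 11.23 in vehicle-treated M1. M2 minus M1 was 0.51 with IL-1α and 0.57 with vehicle, under the 2-fold threshold and inside the central 95% of genes (-1.79 to 1.99 with IL-1α, -1.95 to 1.87 with vehicle). IL-1α minus vehicle was 0.03 in M2 and 0.09 in M1.

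Counted together, 1 of the 6 receptors at the floor was higher in M2 and 4 were lower with IL-1α on both sides, where 8.15% of all genes were called higher and 6.06% lower. With vehicle the counts were again 1 and 4, beside 7.03% and 6.83% of genes. With the floor at 9.635, Gpr183 was called on neither pair of arrays, Gpr35 not with IL-1α and Hcar2 not with vehicle. The receptors were proposed from these contrasts, and a receptor high in 1 phenotype alone reached the floor only through it.

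**Figure D3:**
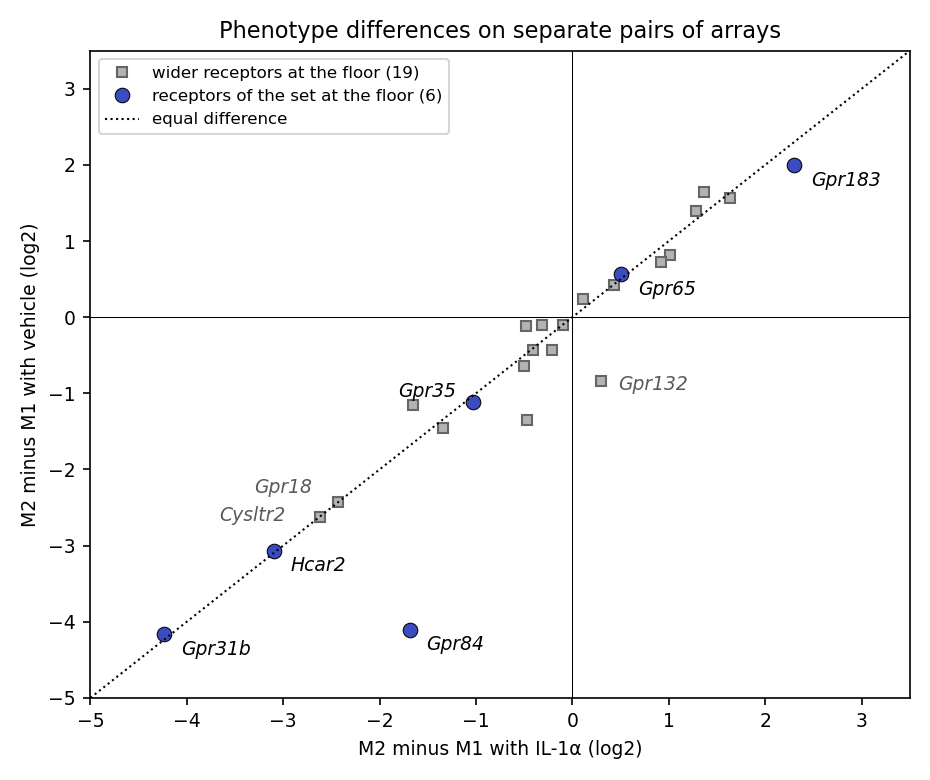
M2 minus M1 (log2) with IL-1α (horizontal axis) and with vehicle (vertical axis), for the 6 receptors at the floor (blue circles) and 19 wider metabolite and lipid receptors at the floor (grey squares); the dotted line marks equal differences. Gpr84 lies off the line, at -1.69 with IL-1α and -4.10 with vehicle, whereas Gpr31b, Hcar2, Gpr35 and Gpr65 lie near it.

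Markers of other cell types were set beside these values. For all marker lists, the shares of all genes called in M2 minus M1 serve as background. These were 8.15% higher and 6.06% lower with IL-1α, and 7.03% and 6.83% with vehicle. Of 10 neutrophil markers, 5 reached the floor in IL-1α-treated M2 and 6 in vehicle-treated M2, and 0 on either M1 array. Their mean signal was 7.41 in IL-1α-treated M2, 7.52 in vehicle-treated M2, 6.67 in IL-1α-treated M1 and 6.63 in vehicle-treated M1. Between phenotypes, Ngp (2.42 with IL-1α and 2.52 with vehicle) and Ltf (1.03 and 1.12) were higher in M2 on either pair of arrays, and S100a8 (1.26) and Mmp8 (1.40) with vehicle, in the same direction as Gpr183. S100a9 differed by 0.79 and 0.89 and Mpo by 0.34 and 0.66, while Camp, Elane, Ly6g and Cxcr2 were under the floor on all 4 arrays. Of 5 eosinophil markers, Ccr3 and Siglecf reached the floor in M2, where Ccr3 was higher (signal 9.86 in IL-1α-treated M2, against 7.43 in IL-1α-treated M1, and 9.61 in vehicle-treated M2, against 7.11 in vehicle-treated M1), and Epx, Prg2 and Il5ra on no array. Their means were 6.85 in IL-1α-treated M2, 6.87 in vehicle-treated M2, 6.39 in IL-1α-treated M1 and 6.27 in vehicle-treated M1.

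Of 8 dendritic cell markers, 2 reached the floor on each M2 array and 4 on each M1 array. Their means were 7.10 in IL-1α-treated M2, 7.15 in vehicle-treated M2, 7.78 in IL-1α-treated M1 and 7.86 in vehicle-treated M1. Clec9a (-3.88 with IL-1α and -4.35 with vehicle, M2 minus M1), Xcr1 (-1.86 and -1.96) and Ccr7 (-1.58 and -1.76) were lower in M2, each under the floor on both M2 arrays, in the same direction as Gpr31b and Hcar2. Batf3 went the other way (1.58 and 1.40), Zbtb46 differed by 0.47 and 0.48, and Flt3, Cd209a and Itgae were under the floor on all arrays. Of the 9 macrophage markers, Fcgr1 (-2.89 and -3.06), C1qa (-2.37 and -2.56) and Cd14 (-1.89 and -2.33) were lower in M2 on either pair of arrays, and Mertk with IL-1α (-1.12), and none was called higher. The part of other cells, or of these marker shifts, in the receptor differences was not tested. None of the 7 lymphocyte and 5 mast cell and basophil markers measured reached the floor on any array. Of 6 stromal and endothelial markers, Col1a1, Col1a2 and Pecam1 reached the floor on all 4 arrays and Dcn, Pdgfrb and Cdh5 on none. Their means were 7.85 in IL-1α-treated M2, 7.76 in vehicle-treated M2, 7.68 in IL-1α-treated M1 and 7.60 in vehicle-treated M1, and none was called in any comparison.

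A wider list of 42 other measured receptors for metabolites, prostanoids, leukotrienes and lysolipids was then read. Of these, 19 reached the floor on at least 1 array. In M2, IL-1α minus vehicle was past 2-fold in 1 of 18, Gpr132 (1.06), a receptor of the same small family as Gpr65 that answers oxidised fatty acids, beside 0.35% of all genes called higher. It is named here because it was the only one. Gpr132 read 10.07 in IL-1α-treated M2 and 9.01 in vehicle-treated M2, and 9.77 in IL-1α-treated M1 and 9.85 in vehicle-treated M1. The list's median was -0.04, against 0.05 for all genes. In M1, 0 of 16 were past 2-fold, with a median of -0.03.

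Between phenotypes, the wider list held 4 receptors higher and 4 lower in M2 of 18 with IL-1α, and 3 higher and 5 lower of 19 with vehicle. Over all genes the shares were 8.15% higher and 6.06% lower with IL-1α, and 7.03% and 6.83% with vehicle. With the floor at 9.635 the list's calls fell to 3 on either pair. The cysteinyl leukotriene receptor Cysltr2 differed by -2.62 on either pair of arrays. Gpr18, proposed as a receptor of N-arachidonoyl glycine, differed by -2.44 with IL-1α and -2.42 with vehicle. The lysophosphatidic acid receptor Lpar1 differed by -1.66 with IL-1α and -1.16 with vehicle, and read under the floor in IL-1α-treated M2. The prostaglandin receptor Ptger2 was higher in M2 by 1.36 with IL-1α and 1.65 with vehicle, and read under the floor on both M1 arrays. The median of the list was -0.26 with IL-1α, against 0.03 for all genes, and -0.12 with vehicle, against 0.01 for all genes.

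Genes that make, use or move the receptors' ligands were described next, from lists arranged by receptor. For Gpr183, Ch25h, which makes the oxysterol precursor, read 8.62 in IL-1α-treated M2, against 9.85 in IL-1α-treated M1, and 8.05 in vehicle-treated M2, against 9.77 in vehicle-treated M1. Its M2 minus M1 differences, -1.23 with IL-1α and -1.73 with vehicle, ran opposite in sign to those of the receptor. Another sterol hydroxylase, Cyp27a1, was higher in M2 by 2.02 with IL-1α and 2.06 with vehicle. Hsd3b7, which inactivates the ligand, differed by 0.14 with IL-1α and -0.0005 with vehicle, and Cyp7b1, which completes its synthesis, was under the floor on all arrays.

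For Gpr35, 10 genes of tryptophan and kynurenine metabolism were measured, and 4 reached the floor. Kynureninase, Kynu, read 7.59 in IL-1α-treated M2 and 6.52 in vehicle-treated M2, and 11.29 in IL-1α-treated M1 and 11.27 in vehicle-treated M1. Its IL-1α difference in M2, 1.07, was not called because both M2 signals were under the floor. M2 minus M1 for Kynu was -3.70 with IL-1α and -4.74 with vehicle. Afmid, Kyat1 and Kyat3 differed between phenotypes by -0.03 to 0.65. Ido1, Ido2, Tdo2, Kmo, Aadat and Haao were under the floor on every array.

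For Sucnr1, the succinate dehydrogenase subunits Sdha, Sdhb, Sdhc and Sdhd read from 11.09 to 12.36 on all arrays, and differed between phenotypes by -0.49 to 0.44. The succinyl-CoA ligase genes Suclg1, Suclg2 and Sucla2 read from 8.23 to 10.19. Acod1 makes itaconate, an inhibitor of succinate dehydrogenase, and read 11.35 in IL-1α-treated M2 and 7.45 in vehicle-treated M2, and 13.76 in IL-1α-treated M1 and 13.75 in vehicle-treated M1. Like Gpr84, it was under the floor in vehicle-treated M2 alone. For Gpr31b, none of 7 lipoxygenase genes reached the floor, and Alox5, Alox12, Alox12b, Alox12e, Alox15, Alox8 and Aloxe3 read from 5.68 to 7.17.

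For Hcar2, Oxct1, which uses ketone bodies, read 11.27 in IL-1α-treated M2, against 10.27 in IL-1α-treated M1, and 11.31 in vehicle-treated M2, against 10.38 in vehicle-treated M1. Its difference was 1.00 with IL-1α, at the threshold and not called after loess normalisation, and 0.93 with vehicle, not called. Acat1 differed by 0.55 and 0.56, and Bdh1 and Bdh2 were under the floor. For Gpr65, the lactate and proton exporter Slc16a3 differed by -1.97 with IL-1α and -1.89 with vehicle (M2 minus M1), and Slc16a1 by 1.11 and 1.10. The carbonic anhydrase gene Car13 differed by -1.06 and -1.43, and the lactate dehydrogenase gene Ldhb by 1.06 and 1.10, with Ldhb under the floor on both M1 arrays. Ldha differed by -0.10 and -0.13 and Car2 by 0.62 and 0.33, while Car4 and Car12 were under the floor.

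**Figure D4:**
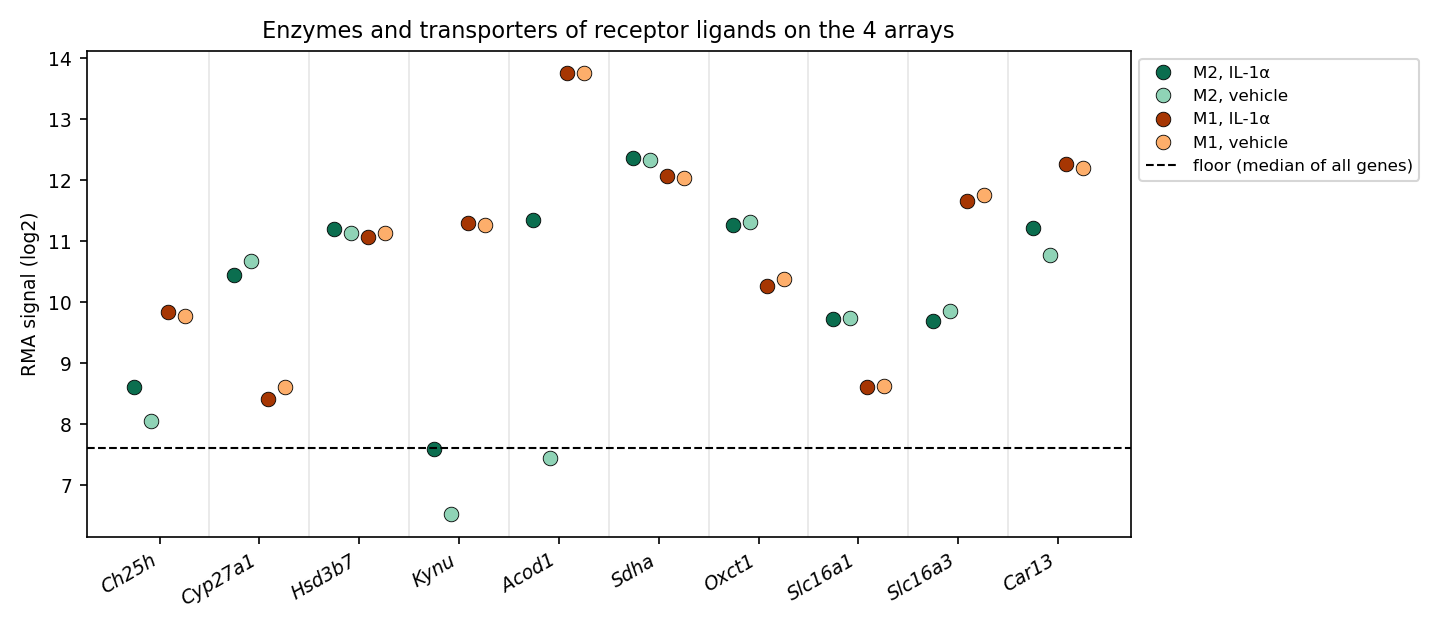
RMA signal (log2, vertical axis) on the 4 arrays of 10 enzyme and transporter genes tied to the receptors' ligands, 1 point per array, with the floor of 7.617 as a dashed line. Acod1 reads 11.35 in IL-1α-treated M2 and 7.45 in vehicle-treated M2, with both M1 signals above these; both M2 signals of Kynu lie under the floor, and Cyp27a1 and Slc16a1 are higher in M2 than in M1.

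Genes of the signalling steps downstream were read last. Of 7 Gα subunit genes at the floor, 1 was called between phenotypes with IL-1α, Gna15 (1.20 in M2 minus M1), and 0 with vehicle. For this list and the next ones, the shares of all genes called were 8.15% higher and 6.06% lower with IL-1α, and 7.03% and 6.83% with vehicle. The inhibitory subunit genes Gnai2 and Gnai3 differed by -0.13 and 0.48 with IL-1α and by -0.21 and 0.39 with vehicle. Among arrestins, receptor kinases and RGS proteins, which end receptor signals, 2 of 11 were higher and 2 lower in M2 with IL-1α on both sides, and 2 of 12 higher and 1 lower with vehicle. These were Rgs18 (1.57 with IL-1α and 1.56 with vehicle), Rgs16 (1.30 and 1.24), Arrb2 (-1.07 and -1.21) and Rgs1 (-1.03 and -0.95). Of 13 genes of cyclic AMP synthesis, breakdown and kinase, 3 were higher in M2 and 1 lower on either pair of arrays, and 1 was called on either pair with the floor at 9.635. The phosphodiesterase gene Pde3b differed by 2.04 with IL-1α and 2.22 with vehicle, Adcy3 by 1.56 and 1.33, Pde7b by -1.18 and -1.12 and Adcy9 by 1.01 and 1.07. Pde3b and Adcy3 were under the floor on both M1 arrays. No gene of these 3 signalling lists was past 2-fold with IL-1α in either phenotype. Over all genes, 0.35% were called higher with IL-1α in M2 and 0 of 10012 in M1. The largest IL-1α difference in these 3 lists was in Pde4b (0.83 in M2). Over all 10 lists, 28 of 74 genes at the floor were past 2-fold in at least 1 of the 4 comparisons between 2 arrays, beside 15.5% of all genes.

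The genes whose profile over the 4 arrays was most like each receptor's were found by the Euclidean distance between profiles, each centred on its own mean, among 10111 genes at the floor. For Gpr84 these were the costimulatory receptor Cd40 (distance 0.72), the cytokine Tnf (0.73) and the adhesion molecule Vcam1 (0.85), and no gene lay within 0.5. Vcam1 was, like Gpr84, under the floor in vehicle-treated M2 (6.75), and read 8.49 in IL-1α-treated M2. For Gpr31b they were Il15ra (0.12), the helicase Ddx60 (0.14) and the exonuclease Isg20 (0.15), with 8 genes within 0.25. For Hcar2 they were the glycolytic regulator Pfkfb3 (0.08), Cd300lf (0.10) and the scavenger receptor Marco (0.12), with 15 genes within 0.25. Cd300lf and Marco were, like Hcar2, under the floor on both M2 arrays.

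For Gpr35 the nearest were the dendritic cell growth factor Flt3l (0.10), the troponin gene Tnni3 (0.11) and Ifitm6 (0.15), with 15 genes within 0.25. For Gpr183 they were the phosphatase Phospho1 (0.04), the sterol reductase Dhcr7 (0.07) and Pcyox1l (0.09), with 55 genes within 0.25. Phospho1 was, like Gpr183, under the floor on both M1 arrays. Gpr65 varied little, and 1381 genes lay within 0.25 of it, the proton pump subunit Atp6v1b2 nearest (0.01), then Itgb1 (0.02) and the ribosomal protein gene Rpl5 (0.03). Likeness over 4 arrays is a description of these arrays.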

How the data were processed

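Gene expression was measured on single-colour Affymetrix mouse arrays, 1 per group. Per the submitters' processing notes, the authors used RMA in Affymetrix Expression Console, and what they deposited is a log2 signal for each probe set. Versions, settings and detection calls are not given in the sources used here. The log2 scale was read from the values, which run from 3.09 to 14.47 with array medians of 7.32 to 7.38. RMA in general sets arrays to a common distribution and compresses differences among dim probe sets. The number of arrays limits the precision, and the labels do not say whether cultures or animals were separate.

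GEO's platform annotation gave 1 gene for 21789 of 35556 rows, several for 1621 and none for 12146, and only the first kind was used. Symbols were updated by Entrez number through RefSeq (21698 matched), and probe sets of a gene were averaged (999 genes had more than 1). The receptors and lists were chosen with earlier results of these data known. The lists were chosen by textbook function. Named genes were all 8 receptors, up to 4 called genes per signalling or wider receptor list, all measured ligand genes, and the 3 nearest profiles per receptor at the floor, without olfactory and vomeronasal receptors, receptor segments, small RNAs, clones or predicted genes. Tools were Python 3.11.15, pandas 2.3.3, R 4.3.3 and limma 3.58.1 (used for normalisation alone). The calling step was run on simulated data as a check of the code alone. The changed genes there lay well above the floor, so calls near the floor were not tested. Tried as alternatives were loess, a gene's brightest probe set alone, quantile normalisation, a 1.5-fold threshold, a stricter floor (the 75th percentile, 9.635) and none.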

Additional observations from a re-analysis of the deposited data

Results flagged for a closer look

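In 4 receptors the IL-1α difference had opposite signs in M2 and in M1, with 1 array behind each group, and the difference was not tested. It was 2.36 in M2 and -0.05 in M1 for Gpr84, and 0.03 and -0.28 for Gpr183, which was under the floor on both M1 arrays. For Sucnr1 it was -0.05 in M2 and 0.15 in M1, and for Ffar2 -0.20 and 0.26. All signals of both genes were under the floor. The values of Gpr84 in M1 and of Gpr183 in M2 lay inside the central range of genes (-0.24 to 0.21 in M1, -0.23 to 0.38 in M2). The share of all genes with opposite signs was not counted, so the count of 4 has no background. No conclusion is drawn from these signs.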

How the results depend on the processing

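With the floor at the 75th percentile (9.635), 0 receptors were called for IL-1α in M2, against 1 with the floor at the median. In each comparison of M2 with M1, 3 were called, against 5. Receptors with no compared array at that floor could not be called. Of all genes, 19 of 5136 were called higher with IL-1α in M2 at that floor. In M2 minus M1, 533 were called higher and 503 lower of 5732 with IL-1α, and 429 and 559 of 5609 with vehicle. The signal of Gpr84 in IL-1α-treated M2, 9.48, lies under that floor. Genes called over the 10 lists numbered 17 with that floor, against 28, and the matching share of all genes was not counted. Under the 1.5-fold threshold, no floor, loess, quantile normalisation and the brightest probe set, the counts of receptors called were the same in all 5 contrasts. The brightest probe set can change the signals of Gpr31b alone, since each other receptor has 1 probe set. At 1.5-fold, 1477 genes were called higher and 1400 lower of 10489 in M2 minus M1 with vehicle. With IL-1α these were 1740 and 1197 of 10479. No called receptor changed sign under loess, quantile normalisation or the brightest probe set. The other alternatives change the threshold or the floor and leave every difference as it was. Loess and quantile normalisation moved the receptors' differences by at most 0.12, and the brightest probe set by at most 0.02. No paired analysis was possible because each group has 1 array. Signals under the floor limit Gpr84 in vehicle-treated M2, Hcar2 in M2, Gpr183 in M1, and Sucnr1 and Ffar2 on all arrays.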
